A study of Mus musculus with 24 samples.

Results

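The genes described here are 9 genes of gp130 cytokine signalling: the receptor subunits Il6st, Lifr and Osmr, the ligands Osm, Lif, Cntf and Clcf1, the transcription factor Stat3 and its feedback inhibitor Socs3. They were chosen by name, and their rows were taken from a table of 21965 genes. All 9 passed the filter on low counts (a sum of at least 10 counts over the libraries), as did 17167 genes in all. OL-Ribotag mice (rpl22HA allele with a Cre transgene, C57Bl/6 background, female) carry an HA-tagged ribosomal protein RPL22 that tamoxifen switches on through an inducible Cre, mainly in mature oligodendrocytes (OLs) and also in some cells without the OL marker CC1. All groups, the uninjured control included, carried both alleles and received tamoxifen. Contused mice received a 50 kdyn impact at T9, per the labels at 10 to 12 weeks of age, and a cord segment around the lesion was taken 2, 10 or 42 days post-injury (dpi). Naive tissue was collected together with that of dpi 42, so the controls matched dpi 42, and not dpi 2 or dpi 10, in the time of collection. The 4 conditions had 3 pools each, with 2 mice to a pool. Total cord RNA and the RNA on HA-tagged ribosomes (the OL translatome) were sequenced from every pool, which made 24 libraries in 8 groups.

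Cytokines of this family act through receptor complexes that share gp130, the product of Il6st. LIF, CNTF and CLCF1 pair gp130 with the LIF receptor, oncostatin M also pairs it with the product of Osmr, and CNTF and CLCF1 need the CNTF receptor alpha chain in addition. The bound complex activates JAK kinases, which phosphorylate STAT3, and STAT3 then induces target genes that include Socs3, whose product binds gp130 and JAKs and ends the signal. In the injured central nervous system the pathway is best known for its part in reactive astrocytes, and LIF and CNTF are known as survival factors of OLs.

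The total count per library was 25840127 to 32987841, and levels are given as CPM, the usual read counts relative to library size, with library sizes scaled by TMM factors, at which 3 counts, the floor used here, correspond to 0.084 to 0.127 CPM. Mature OL markers (8 genes, among them Mbp and Mog) summed to 96300 to 158000 CPM in OL libraries. Markers of other cells were still present in them. The summed astrocyte list (7 genes, among them Gfap and Aqp4) was 1980, 1720 and 8200 CPM in the 3 naive OL libraries. It was 3858, 2411 and 8644 CPM on dpi 2, was 2484, 6547 and 2866 CPM on dpi 10, and reached 13240, 11130 and 2585 CPM on dpi 42. Gene by gene, none of the 7 rose and 1 fell on dpi 2 in OL libraries, none changed on dpi 10, and 1 rose and none fell on dpi 42, with median changes of -0.66, -0.95 and 0.084, so the sum does not stand for all its genes. Gfap is in this list and also among the STAT3 targets. The monocyte and macrophage list (8 genes) was 2.62 to 3.15 CPM in naive OL libraries, where Ccr2 and Ms4a7 had no count, and 52.3 to 71.1, 165 to 190 and 110 to 178 CPM on dpi 2, 10 and 42. The fibroblast list (5 genes) went from 50.7 to 89.9 CPM to 202 to 244, 429 to 485 and 193 to 228 CPM, and the endothelial list (6 genes) from 4.91 to 6.92 CPM to 12.9 to 21.8, 8.93 to 17.5 and 10.2 to 18.5 CPM. The Schwann cell list (8 genes) was 5070 to 5340 CPM in naive OL libraries, beside 844 to 1130 CPM in naive total RNA. After injury it was 4030 to 4980, 4990 to 6180 and 4460 to 5470 CPM in OL libraries. Of its genes, 2 were called OL enriched in naive tissue, and 1 rose and 1 fell in OL libraries on dpi 42 (median change 1.92). The paper states that the Cre line is also active in Schwann cells. The part of all these cells in the changes was not tested. In 2 dpi 42 libraries the labels conflict on the kind of RNA, and they were assigned by the label that matches the name in the table. Leaving both out ended 1 call, that of Cntf in total RNA. Both libraries of dpi 2 pool 2 held counts of Y-linked genes although the mice are described as female. In bulk tissue, fewer cells of a type and less RNA per cell cannot be told apart.

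On dpi 2 the OL translatome held 5 of the 9 genes at a higher and 1 at a lower level as compared to naive (edgeR quasi-likelihood test, Benjamini-Hochberg q under 0.05), where 18.4% of all tested genes were higher and 20% lower. On dpi 10 there were 5 higher and 2 lower (9.62% and 8.59% of all genes), and on dpi 42 there were 6 and 2 (16.2% and 16.9%). In total RNA, 6 rose and 1 fell on each of dpi 2 (16.4% and 20.8% of all genes), dpi 10 (13.9% and 18.2%) and dpi 42 (10.4% and 12.1%). Osmr, Osm, Clcf1, Socs3 and Stat3 rose and Lifr fell at each time in both kinds of RNA. These comparisons share the naive libraries. The median log2 change of the 9 genes in the OL translatome was 1.15, 1.07 and 1.95 at the 3 times, in order, beside 0 over all genes each time. In total RNA it was 3.04, 1.70 and 1.71, beside -0.10, -0.10 and -0.08.

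**Figure D1:**
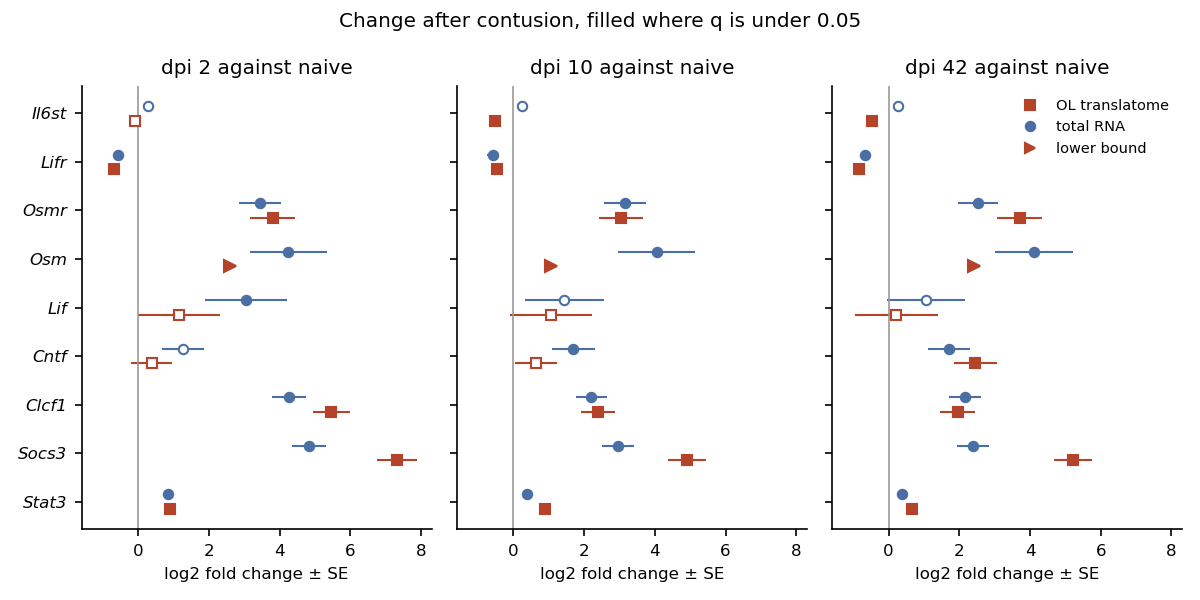
Log2 fold change (x axis, ± SE) of the 9 genes (y axis) at dpi 2, 10 and 42 against naive, in the OL translatome (squares) and total RNA (circles), filled where q is under 0.05. Triangles give the lower bound of the change of Osm in the OL translatome, where all naive libraries had 0 counts. Socs3 stands farthest to the right among the OL symbols on all 3 days and Lifr lies left of 0 in each panel.

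Il6st, the signal-transducing subunit common to the family (chr13:112464070-112510086, GRCm38, plus strand), was the most abundant of the 3 receptor genes. In naive tissue it had 242, 254 and 327 CPM in the 3 OL libraries and 184, 174 and 165 CPM in total RNA. All OL libraries thus lay above all total RNA libraries, and OL enrichment (OL against total RNA) was 0.65 ± 0.13 (log2, SE, q = 0.000267). The OL level was 266, 247 and 254 CPM on dpi 2, 188, 207 and 174 CPM on dpi 10 and 235, 217 and 146 CPM on dpi 42. Each dpi 10 library lay below each naive one. Against naive, the OL change was -0.10 ± 0.13 on dpi 2 (q = 0.598), and Il6st then fell by 0.53 on the log2 scale on dpi 10 (q = 0.00783) and by 0.46 on dpi 42 (q = 0.0113). Both calls were lost with library sizes alone in place of TMM (q = 0.0533 and 0.104) and in fits of only the groups compared (q = 0.0577 and 0.195). It was also lower on dpi 10 than on dpi 2 in OL libraries (-0.43 ± 0.13, q = 0.0242), a call lost when dpi 10 replicate 1 or 3 or any dpi 2 OL library was left out (q 0.0583 to 0.146). Total RNA held 213, 226 and 189 CPM on dpi 2, and means of 206 and 210 CPM on dpi 10 and 42. Its changes there were 0.27, 0.24 and 0.27 (q 0.131 to 0.194), and when only the groups compared were scaled and fitted they were 0.38, 0.39 and 0.38 (q = 0.00467, 0.00017 and 0.00246). All injured total RNA libraries lay above all naive ones at each time. Of the 24 fits with 1 library left out, 12 called the rise on dpi 2 (0.41), 12 on dpi 10 (0.36) and 5 on dpi 42 (0.37). Each of these left out an OL library, with TMM factors computed anew. At each time the value was the same whichever OL library that was, so these fits are not separate checks. OL enrichment after injury was 0.29 on dpi 2 (q = 0.0784), -0.12 on dpi 10 (q = 0.475) and -0.08 on dpi 42 (q = 0.667). With library sizes alone, a scaling that shifts the median OL enrichment of all genes by -0.51 in naive tissue, Il6st had a naive OL enrichment of 0.15 (q = 0.4), and was called depleted on dpi 10 (-0.70, q = 0.000495) and dpi 42 (-0.57, q = 0.00272).

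The difference between the OL change and the total change (differential OL enrichment, the interaction term) was -0.77 ± 0.19 for Il6st on dpi 10 (q = 0.0146) and -0.73 ± 0.19 on dpi 42 (q = 0.0203). On dpi 42 the call was lost without naive total RNA replicate 3 (-0.69, q = 0.0564) and in a fit of only the 4 groups compared (-0.71, q = 0.097).

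Lifr, the LIF receptor (chr15:7090614-7197489, plus strand), was lower after injury in both kinds of RNA. Naive OL libraries held 131, 118 and 119 CPM and naive total RNA 111, 88.4 and 106 CPM. On dpi 2 the OL level was 77.8, 83.8 and 68.8 CPM, below each naive library, and the change was -0.68 ± 0.15 (q = 0.000929). On dpi 42 it was 63.1, 62.9 and 78.4 CPM (-0.85 ± 0.15, q = 0.000154), and on dpi 10 it was 101, 75.1 and 89.9 CPM (-0.47 ± 0.15, q = 0.0302). The dpi 10 call was lost without dpi 10 OL replicate 2 or 3 or naive OL replicate 1 or 2 (q 0.0599 to 0.163). In total RNA Lifr fell by 0.57, 0.59 and 0.67 on the log2 scale (q = 0.0041, 0.0038 and 0.00209), to means of 68.8, 67.9 and 64.0 CPM. The dpi 2 call there was lost with library sizes alone (-0.35, q = 0.0563). OL enrichment was called on dpi 10 (0.38 ± 0.15, q = 0.0322), but not with DESeq2 (0.30, q = 0.0992), not without dpi 10 OL replicate 1 or 3 or total RNA replicate 2 or 3 (q 0.0542 to 0.121), and with library sizes alone its sign turned (-0.20, q = 0.228). In naive tissue it was 0.27 (q = 0.132), but 0.29 in a fit of only the groups compared (q = 0.0433) and 0.43 to 0.45 without naive OL replicate 2 or 3 or any 1 OL library of an injured group (q 0.0142 to 0.0309).

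Osmr encodes the oncostatin M receptor subunit (chr15:6813577-6874969, minus strand). It was low in naive OL libraries, with 6, 10 and 70 counts (0.252, 0.423 and 2.68 CPM), and on dpi 2 it reached 277, 252 and 709 counts (10.5, 10.2 and 27.1 CPM). The lowest dpi 2 library lay above the highest naive one, and the OL change was 3.80 ± 0.64 on dpi 2 (q = 6.1e-05), 3.04 ± 0.63 on dpi 10 (q = 0.00159) and 3.71 ± 0.63 on dpi 42 (q = 0.000127). The OL level was 4.16, 15.6 and 8.41 CPM on dpi 10 and 17.9, 19.7 and 7.12 CPM on dpi 42. Total RNA went from 2.89, 3.22 and 5.20 CPM to 41.7, 38.7 and 42.2 CPM on dpi 2 (3.44 ± 0.59, q = 8.92e-05), with 3.16 on dpi 10 (q = 0.000255) and 2.54 on dpi 42 (q = 0.00271). Osmr was depleted from the OL translatome in naive tissue (-1.73 ± 0.62, q = 0.0224), on dpi 2 (-1.36 ± 0.54, q = 0.0399) and on dpi 10 (-1.84 ± 0.55, q = 0.00763), and was at -0.55 on dpi 42 (q = 0.401). The naive call was lost without naive OL replicate 1 (-1.11, q = 0.151) or 2 (-1.19, q = 0.145) or total RNA replicate 3 (-1.42, q = 0.0873), and the dpi 2 call without OL replicate 1 or 2 or any total RNA library of that day (-1.17 to -1.40, q 0.0631 to 0.117). In fits of only the groups compared, the naive depletion (-1.68, q = 0.132) and the dpi 10 OL change (3.06, q = 0.0648) were not called.

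Within OL libraries Osmr and the astrocyte markers were high in the same libraries. In the naive group, Osmr and the astrocyte list were both highest in replicate 3, on dpi 2 again in replicate 3, and on dpi 10 in replicate 2. On dpi 42 the 2 libraries with the higher astrocyte sums, 13240 and 11130 CPM, had 17.9 and 19.7 CPM of Osmr and the third 7.12 CPM. Among OL libraries with an astrocyte sum of 1720 to 2866 CPM, Osmr was at 0.252 and 0.423 CPM in naive tissue and at 4.16 to 10.2 CPM after injury. Leaving out naive OL replicate 3 raised the dpi 2 OL change to 5.48 and gave a differential OL enrichment on dpi 42 of 2.75 (q = 0.0288), which with all libraries was 1.17 (q = 0.458). The part of astrocyte RNA in the level of Osmr was not tested.

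**Figure D2:**
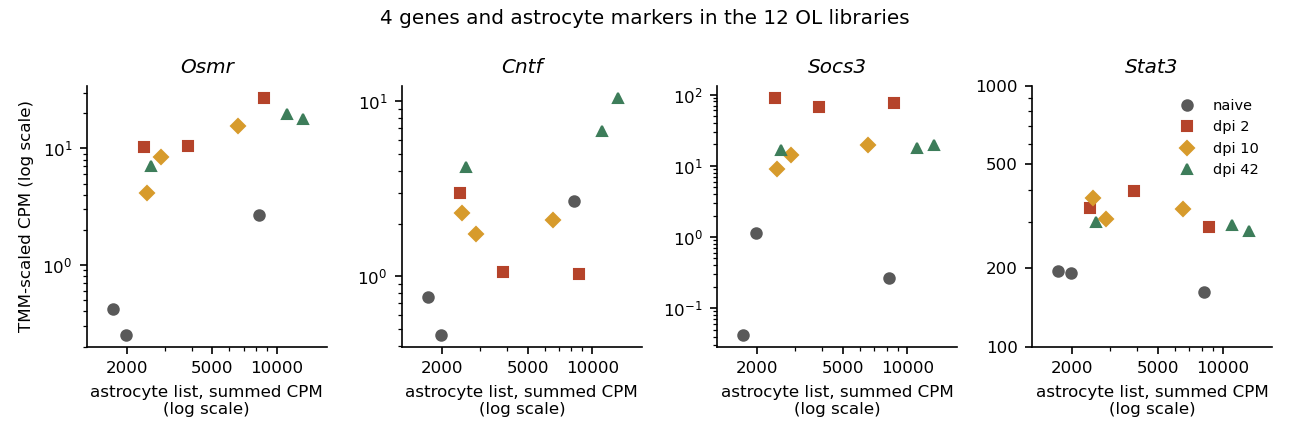
CPM of Osmr, Cntf, Socs3 and Stat3 (y axes, log scale) against the summed CPM of 7 astrocyte markers (x axes, log scale) in the 12 OL libraries, with a symbol for each time. In naive, dpi 2 and dpi 10 tissue Osmr is highest in the library with the most astrocyte signal, while Socs3 on dpi 2 is between 67.0 and 89.8 CPM over astrocyte sums from 2411 to 8644 CPM.

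**Figure D3:**
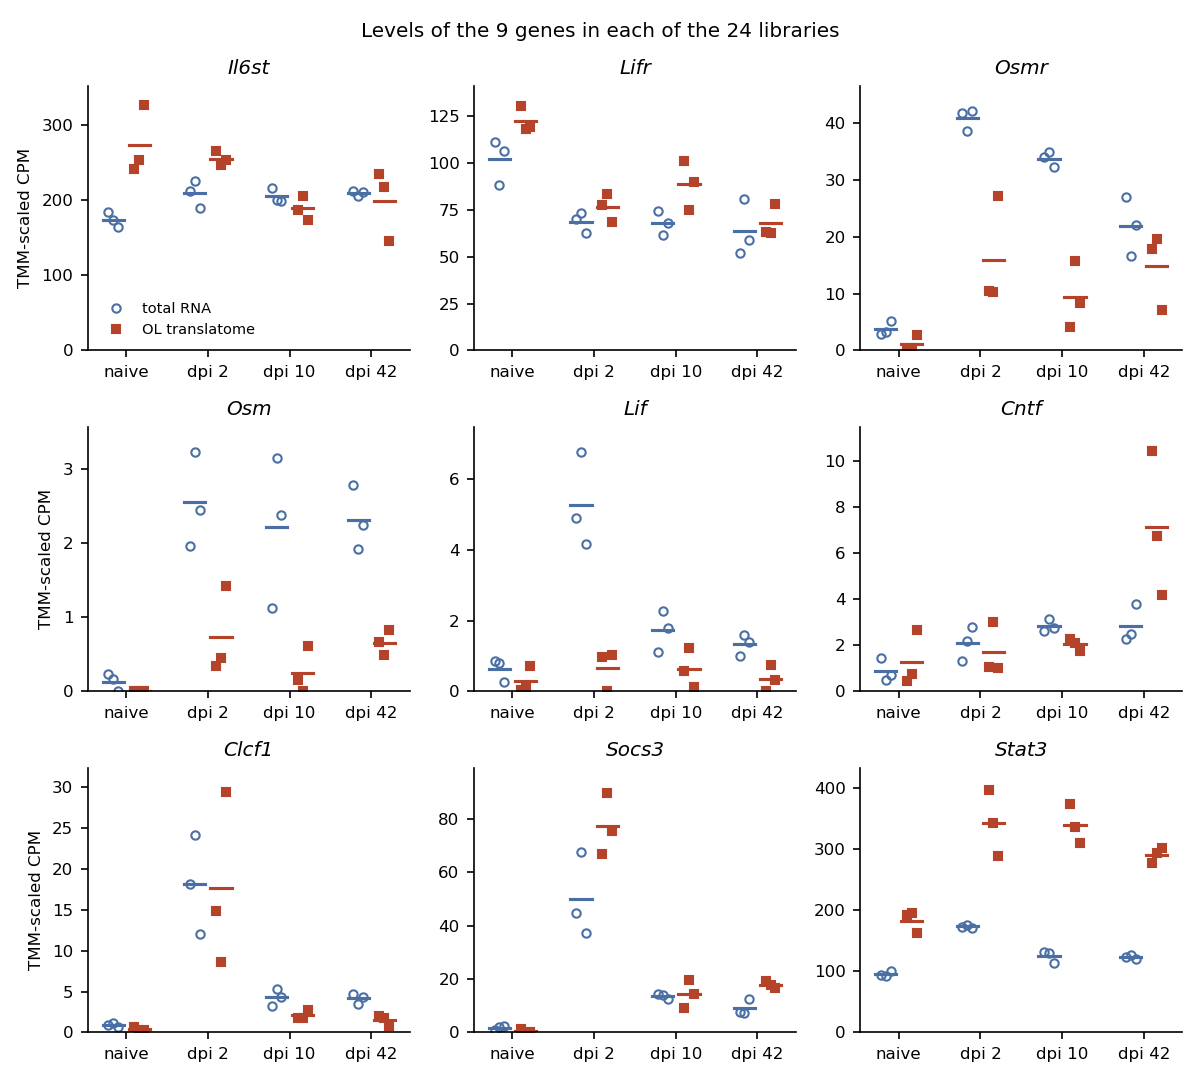
TMM-scaled CPM (y axes, linear from 0) of the 9 genes in each library of naive, dpi 2, dpi 10 and dpi 42 tissue, total RNA as open circles and OL translatome as filled squares, with a bar at each group mean (n = 3). Stat3 is the only panel in which all OL libraries lie above all total RNA libraries at each of the 4 times.

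Among the ligands, Osm (oncostatin M, chr11:4236420-4241026, plus strand) had no count in any of the 3 naive OL libraries, which allows up to 0.123 CPM at the floor of 3 counts per library. On dpi 2 the OL libraries held 9, 11 and 37 counts (0.340, 0.446 and 1.41 CPM), so that the mean was at least 5.99-fold higher (q = 0.00139). With the replicate number as a block, which pairs naive with dpi 2 OL libraries, that call was lost (q = 0.112). On dpi 10 they held 4, 0 and 16 counts (at least 2.08-fold, q = 0.021, lost without dpi 10 replicate 3 or naive replicate 1 or 2, q 0.0637 to 0.137, and in a fit of only the groups compared, q = 0.205), and on dpi 42 19, 13 and 21 counts (at least 5.36-fold, q = 0.0022). Total RNA had 7, 5 and 0 counts in naive tissue and 70, 108 and 81 on dpi 2, with changes of 4.25 ± 1.10 (q = 0.00457), 4.05 ± 1.09 (q = 0.00726) and 4.11 ± 1.09 (q = 0.0101) on dpi 2, 10 and 42. All OL libraries lay below all total RNA libraries on each day after injury, and the depletion was -1.79 on dpi 2 (q = 0.127), -3.10 ± 1.04 on dpi 10 (q = 0.0165) and -1.81 on dpi 42 (q = 0.124). The dpi 10 call was lost without OL replicate 1 (-2.80, q = 0.0644) or total RNA replicate 2 (-2.76, q = 0.0531). The dpi 2 depletion was called with library sizes alone (-2.33, q = 0.0473) and without OL replicate 3 (-2.74, q = 0.0493), and that on dpi 42 with DESeq2 (-1.89, q = 0.0446). In naive tissue OL libraries were at least 1.06-fold lower (q = 0.0226, or 0.0614 with the tissue pool as a block, and 0.0614 to 0.0674 without any 1 naive OL library or total RNA replicate 1). Osm is mainly made by leukocytes, and the monocyte and macrophage list was also higher after injury in OL libraries, from 2.62 to 3.15 CPM in naive tissue to 52.3 to 71.1 CPM on dpi 2. On dpi 10 the list was at its highest there (165 to 190 CPM). Mean Osm was 0.255 CPM on dpi 10 beside 0.734 CPM on dpi 2, a difference that was not called (q = 0.312). In total RNA the list went from 765 to 1060 CPM on dpi 2 to 2580 to 3610 CPM on dpi 10. Mean Osm was 2.55 and 2.22 CPM there, also not called (q = 0.957). The part of leukocytes in the level of Osm was not tested.

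Lif (chr11:4257557-4272514, plus strand) is the neighbour of Osm on chromosome 11. It rose on dpi 2 in total RNA, from 0.853, 0.806 and 0.254 CPM to 4.90, 6.79 and 4.17 CPM. The change was 3.04 ± 1.16 (q = 0.0439), and q passed 0.05 in 12 of the 24 fits that left out 1 library (0.0522 to 0.148), namely those without any 1 of the 12 total RNA libraries. Without both libraries of dpi 2 pool 2 it was 2.82 (q = 0.0546). It was 1.44 on dpi 10 (q = 0.354) and 1.06 on dpi 42 (q = 0.549), both with all injured libraries above all naive ones, and the dpi 10 change was called in a fit of only the groups compared (1.59, q = 0.0234). OL libraries had few counts, 1, 3 and 19 in naive tissue and 26, 0 and 27 on dpi 2, and their groups overlapped (1.15 ± 1.15, q = 0.478). On dpi 2 Lif was depleted from the OL translatome (-2.96 ± 1.16, q = 0.0362). That call was lost with the tissue pool as a block (-3.45, q = 0.0919), without dpi 2 OL replicate 1 (-3.40, q = 0.0524) or 2 (-2.43, q = 0.0766), without total RNA replicate 1 (-3.02, q = 0.0597) or 2 (-2.74, q = 0.0838), and without both libraries of pool 2 (-2.17, q = 0.16).

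Cntf (ciliary neurotrophic factor, chr19:12763660-12765632, minus strand) shares 78.9% of its exonic bases with Zfp91 on the same strand, so the split of reads between them is uncertain. Its OL level was 0.462, 0.762 and 2.68 CPM in naive tissue and 10.5, 6.76 and 4.19 CPM on dpi 42. All dpi 42 OL libraries lay above all naive ones, and the change was 2.45 ± 0.61 (q = 0.00372). On dpi 2 and dpi 10 the OL change was 0.38 (q = 0.682) and 0.65 (q = 0.513), with overlapping libraries. From dpi 10 to dpi 42 the OL difference was 1.80 ± 0.59, which missed the threshold (q = 0.0697) but passed it with DESeq2 (q = 0.0221) and without dpi 42 OL replicate 3 (q = 0.0395) or naive OL replicate 3 (q = 0.0371). In total RNA Cntf rose on dpi 10 (1.70 ± 0.60, q = 0.0344) and dpi 42 (1.71 ± 0.60, q = 0.045). The dpi 10 call was lost without any dpi 10 library or naive replicate 2 or 3 (1.41 to 1.75, q 0.0575 to 0.144). The dpi 42 call was lost in 9 of the 24 fits with 1 library left out, all total RNA libraries (naive replicate 2 and 3, dpi 2 replicate 2, and all of dpi 10 and dpi 42; 1.42 to 1.84, q 0.0523 to 0.179), and without the 2 libraries of conflicting labels (q = 0.0596). OL enrichment on dpi 42 was 1.32 (q = 0.0621), with all OL libraries above all total RNA libraries. It was called in a fit of only the groups compared (1.31, q = 0.0356) and without dpi 42 OL replicate 3 (1.56, q = 0.0408), naive OL replicate 1 or 3, or dpi 2 OL replicate 2 (q 0.0322 to 0.0467). The dpi 42 OL libraries stood in the same order for Cntf as for the astrocyte list (13240, 11130 and 2585 CPM), and the naive library highest in Cntf was also highest in that list. On dpi 2 the highest Cntf value (3.00 CPM, replicate 2) was in the library with the lowest astrocyte sum. Over the 12 OL libraries, Pearson's r of Cntf with that sum was 0.735, as a description. The part of astrocyte or Schwann cell RNA was not tested.

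Clcf1 (cardiotrophin-like cytokine factor 1, chr19:4214238-4223490, plus strand) rose in both kinds of RNA, most on dpi 2. Naive OL libraries held 15, 6 and 8 counts (0.630, 0.254 and 0.306 CPM), and dpi 2 OL libraries 392, 214 and 768 counts (14.8, 8.67 and 29.4 CPM). The OL change was 5.46 ± 0.52 on dpi 2 (q = 5.46e-08), 2.40 ± 0.49 on dpi 10 (q = 0.00143) and 1.95 ± 0.49 on dpi 42 (q = 0.00387), with all injured libraries above all naive ones. The dpi 42 call was lost in a fit of only the groups compared (1.98, q = 0.112). In total RNA 0.951, 1.16 and 0.697 CPM became 18.2, 24.2 and 12.1 CPM on dpi 2 (4.27 ± 0.48, q = 5.46e-07), with 2.20 on dpi 10 (q = 0.000596) and 2.16 on dpi 42 (q = 0.00125). From dpi 2 to dpi 10 it fell by 3.06 on the log2 scale in OL libraries (q = 3.61e-05) and by 2.07 in total RNA (q = 0.0031). OL enrichment was -1.23 ± 0.49 in naive tissue (q = 0.0385, or 0.0745 with the tissue pool as a block), -0.04 ± 0.41 on dpi 2 (q = 0.96), -1.04 ± 0.42 on dpi 10 (q = 0.0448, or 0.0949 with the block) and -1.44 ± 0.43 on dpi 42 (q = 0.00754). The naive call was lost in 11 of the 24 fits with 1 library left out (naive OL replicate 2 or 3, naive total RNA replicate 1 or 2, dpi 2 OL replicate 1 or any OL library of dpi 10 or 42, q 0.058 to 0.22). The dpi 10 call was lost in 13 of them, 5 of which left out a library of other days in the OL translatome and 4 one of other days in total RNA (q 0.0505 to 0.146).

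With all libraries and TMM, none of the 4 ligands was called higher in the OL translatome than in total RNA at any of the 4 times, while Cntf on dpi 42 was called so in 5 alternative fits. Of all 9 genes, 2 were enriched and 4 depleted in naive tissue (24.9% and 30.5% of all genes), 1 and 2 on dpi 2 (24.8% and 28.8%), 2 and 3 on dpi 10 (25.2% and 28.8%), and 1 and 1 on dpi 42 (24.9% and 28.9%).

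Stat3 (chr11:100885098-100939540, minus strand) was the gene of the 9 enriched in the OL translatome at each time. Naive OL libraries held 191, 195 and 162 CPM and total RNA 93.7, 92.9 and 100 CPM, an enrichment of 0.93 ± 0.10 (q = 1.09e-07). It was 0.98 on dpi 2 (q = 7.37e-08), 1.44 on dpi 10 (q = 2.36e-10) and 1.24 on dpi 42 (q = 2.33e-09), each ± 0.10 to 0.11. The OL level rose to 396, 342 and 287 CPM on dpi 2, 372, 336 and 309 CPM on dpi 10 and 277, 293 and 301 CPM on dpi 42. All injured OL libraries thus lay above all naive ones, with changes of 0.90 (q = 6.97e-07), 0.89 (q = 3.34e-06) and 0.67 (q = 4.74e-05), each ± 0.10. Total RNA rose to 173, 176 and 171 CPM on dpi 2 (0.85 ± 0.10, q = 1.71e-06) and then held means of 125 and 123 CPM on dpi 10 (0.38, q = 0.00673) and dpi 42 (0.37, q = 0.0138, or 0.0502 and 0.0563 without naive total RNA replicate 1 or 2). From dpi 2 to dpi 10 Stat3 fell by 0.47 on the log2 scale in total RNA (q = 0.00532), and its difference in OL libraries was -0.01 ± 0.10. Differential OL enrichment was 0.05 ± 0.15 on dpi 2 (q = 0.946), 0.51 ± 0.15 on dpi 10 (q = 0.0353) and 0.30 ± 0.15 on dpi 42 (q = 0.238). The dpi 10 call was lost in 17 of the 24 fits with 1 library left out (0.31 to 0.54, q 0.057 to 0.299), 12 of them without 1 of the 12 OL libraries. TMM factors were computed anew in each such fit. The value was the same, 0.389, whichever OL library of dpi 2 or dpi 42, groups outside this comparison, was left out. Stat3 was not highest in the library with most astrocyte signal at any of the 4 times.

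Socs3 (chr11:117966079-117970047, minus strand) had the largest fitted OL change of the 9 genes on each day among those with counts in naive OL libraries. In naive OL libraries it had 27, 1 and 7 counts (1.14, 0.0423 and 0.268 CPM), and on dpi 2 1772, 2217 and 1971 counts (67.0, 89.8 and 75.4 CPM). The OL change was 7.33 ± 0.57 (q = 3.2e-09). It was 8.82 without naive OL replicate 1, which held 27 of the naive counts, and 6.73 without replicate 2, which held 1. The OL level was 9.09, 19.7 and 14.3 CPM on dpi 10 (4.90 ± 0.54, q = 1.6e-06) and 19.3, 17.8 and 16.8 CPM on dpi 42 (5.22 ± 0.54, q = 5.61e-07). In total RNA 0.820, 1.87 and 2.57 CPM became 44.7, 67.7 and 37.4 CPM on dpi 2 (4.83 ± 0.48, q = 1.34e-07), followed by 2.95 ± 0.45 on dpi 10 (q = 3.71e-05) and 2.38 ± 0.45 on dpi 42 (q = 0.000559). From dpi 2 to dpi 10 Socs3 fell by 2.43 on the log2 scale in OL libraries (q = 0.000229) and by 1.88 in total RNA (q = 0.00532).

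Socs3 was depleted from the naive OL translatome and lay near the threshold for enrichment on dpi 42. OL enrichment was -1.87 ± 0.56 in naive tissue (q = 0.00683), 0.63 ± 0.40 on dpi 2 (q = 0.186), 0.08 ± 0.40 on dpi 10 (q = 0.889) and 0.97 ± 0.41 on dpi 42 (q = 0.0503). The dpi 42 value was called with other filters on counts (q = 0.0484 and 0.0495), in a fit of only the groups compared (q = 0.0143) and in 8 of the 24 fits with 1 library left out (0.97 to 1.27, q 0.0162 to 0.0485), those without any 1 naive OL library, dpi 10 OL replicate 1 or 2, naive total RNA replicate 1 or 3, or dpi 42 total RNA replicate 3. On dpi 10 its sign turned with DESeq2's size factors (-0.001) and with library sizes alone (-0.49). The naive call was lost without naive OL replicate 2 (-1.18, q = 0.0667) or 3 (-1.41, q = 0.0572), and in a fit of only the groups compared (-1.85, q = 0.137). Differential OL enrichment was 2.50 ± 0.69 on dpi 2 (q = 0.0171), 1.95 ± 0.69 on dpi 10 (q = 0.0946, or 0.0261 with DESeq2, and 3.39 and 2.29 without naive OL or naive total RNA replicate 1, q = 0.00759 and 0.0495) and 2.84 ± 0.69 on dpi 42 (q = 0.0137). For dpi 2 the call was lost without OL dpi 2 replicate 2 (2.17, q = 0.0517), naive OL replicate 2 (1.76, q = 0.0756) or 3 (1.98, q = 0.064) or naive total RNA replicate 3 (2.12, q = 0.064), and in a fit of only the 4 groups compared (2.50, q = 0.0692). For dpi 42 it was lost without naive total RNA replicate 3 (2.46, q = 0.0518) and in the fit of only those groups (2.86, q = 0.0862). Among the 3 naive OL libraries, that with the highest astrocyte sum had 0.268 CPM of Socs3. On dpi 10 Socs3 was highest in the library with the highest astrocyte sum (replicate 2), and on dpi 42 its 3 values stood in the order of that sum. The highest values of both fell in the same library at 2 of the 4 times, and the part of astrocyte RNA was not tested.

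Socs3 was the 1 member of the 7 with a RefSeq promoter window (GRCm38.p6, 250 bases before to 50 after the start) in which the letters TTCNNNGAA were found. These are the core that STAT dimers bind, they read the same on both strands, and 8.3% of all 32851 windows hold them. The window is shown because Socs3 had the largest fitted OL change among the members with counts in naive OL libraries. It lies at chr11:117969317-117969616 on the minus strand, and the capitals mark the match, which begins 154 bases before the RefSeq start. GENCODE M21 begins the coding transcript 180 bases downstream of that start, and puts the match outside exons, within an intron of 1 of 3 Socs3 transcripts.
Socs3: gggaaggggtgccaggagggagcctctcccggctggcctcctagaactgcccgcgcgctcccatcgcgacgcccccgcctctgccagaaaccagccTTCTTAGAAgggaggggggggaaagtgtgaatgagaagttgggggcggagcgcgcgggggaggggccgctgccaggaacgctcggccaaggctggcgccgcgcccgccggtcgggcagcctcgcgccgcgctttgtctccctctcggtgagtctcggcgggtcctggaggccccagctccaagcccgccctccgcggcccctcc

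No match was found in the windows of Il6st, Lifr (a pair of starts), Osmr, Lif, Cntf and Stat3. Windows of Osm and Clcf1 were not used here. Of the listed STAT3 targets, 3 of the 17 with a window held the letters, beside 9.55% of all genes with a window. Their matches, in capitals with 6 bases on each side, are shown to compare with that of Socs3. Gfap (window chr11:102897151-102897450, minus strand), Icam1 (chr9:21015690-21015989, plus strand) and Steap4 (chr5:7960222-7960521, plus strand) encode an intermediate filament of astrocytes, a leukocyte adhesion molecule and a metalloreductase.
Socs3: ccagccTTCTTAGAAgggagg
Gfap: gggtgcTTCCAGGAAgtcagg
Icam1: cgaggtTTCCCGGAAagtggc
Steap4: gaactcTTCCCGGAAactttg

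Per length of their exons (RPKM), the 9 genes changed their order. In the naive OL translatome Il6st (24.7 RPKM), Stat3 (19.2) and Lifr (11.4) were far above Cntf (1.21) and Socs3 (0.167). On dpi 2 Socs3 reached 26.8 RPKM, with libraries from 23.2 to 31.1. That overlapped the 22.2 to 23.9 RPKM of Il6st and the 30.2 to 41.6 RPKM of Stat3, and lay above the 6.39 to 7.77 RPKM of Lifr. In total RNA Socs3 went from 0.606 to 17.3 RPKM, with libraries from 12.9 to 23.4 RPKM beside 17.1 to 20.4 for Il6st and 17.9 to 18.4 for Stat3. Clcf1 reached 4.63 RPKM in OL libraries and 4.77 RPKM in total RNA, the highest of the 4 ligands on that day in both, although its OL libraries overlapped those of Cntf. As Cntf shares 78.9% of its exonic bases with Zfp91, its RPKM may be too low, and its place in these orders is uncertain.

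Over the 8 groups, mean Stat3 was highest in the OL translatome of dpi 2 (342 CPM) and dpi 10 (339 CPM), which overlapped, and lowest in naive total RNA (95.7 CPM). The OL libraries of dpi 42 (mean 290 CPM) overlapped those of dpi 2. They lay below those of dpi 10, a difference that was not called (q = 0.193). Socs3 was highest in both dpi 2 groups, which overlapped, and above all later groups. Osmr was highest in total RNA of dpi 2, then dpi 10 and dpi 42, and the OL groups after injury overlapped each other.

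Other genes of the pathway were read from lists of other ligands, receptors, kinases, adaptors and targets. Among the other ligands, Il31 had no count in any library. Il11, a gp130 cytokine with its own receptor chain, was OL enriched in naive tissue (2.31 ± 0.70, q = 0.00743), rose in total RNA on dpi 2 (3.41 ± 0.72, q = 0.000718), from 0.295 to 0.903 CPM to 3.02 to 11.6 CPM, and had a differential OL enrichment of -4.69 ± 0.98 (q = 0.00245). Il6, for which the family is named, had no count in any of the 12 OL libraries and at most 12 counts in a library of total RNA, which is too few to show a change.

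Of the 5 other receptor chains, 3 rose and 1 fell in the OL translatome on dpi 2 (18.4% and 20% of all genes), and 2 rose and none fell in total RNA (16.4% and 20.8%). The OL calls came to 1 in a fit of only the groups compared, without both libraries of dpi 2 pool 2 or without OL dpi 2 replicate 2, and to 2 without any 1 naive OL library. Those in total RNA came to 5, of which 4 rose, in a fit of only the groups compared, and to 1 without dpi 2 replicate 1 or 2 or any naive replicate. Il6ra, the IL-6 receptor alpha chain, rose in the OL translatome (2.25 ± 0.28, q = 2e-06), from 0.719 to 1.15 CPM to 3.04 to 5.66 CPM, and in total RNA (1.65 ± 0.25, q = 2.62e-05). Il11ra1 rose in OL libraries (0.75 ± 0.26, q = 0.026), a call lost without dpi 2 OL replicate 2 or 3 or naive OL replicate 1 or 2 (q 0.0849 to 0.195). Cntfr, the alpha chain for CNTF and CLCF1, was called lower in OL libraries (-1.51 ± 0.49, q = 0.0176), but was 257 CPM in naive OL replicate 3, the library high in astrocyte markers, and the change was -0.35 without it (q = 0.476). The call was also lost without dpi 2 OL replicate 1 (q = 0.0652) or 2 (q = 0.0573). Il27ra had no count in naive OL libraries and 0 to 25 on dpi 2. Il31ra had 1 to 2 counts in naive total RNA and 1 to 52 on dpi 2.

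Of 9 kinases and other STATs, 2 rose and 3 fell in the OL translatome on dpi 2, and 4 rose and 1 fell in total RNA, beside the same shares of all genes (18.4% and 20%, and 16.4% and 20.8%). Jak3, a kinase of lymphoid and myeloid cells, rose in total RNA (2.08 ± 0.45, q = 0.000827) and in OL libraries (1.60 ± 0.50, q = 0.0146). The OL call was lost with the replicate block (1.66, q = 0.242) and without dpi 2 OL replicate 3 (0.94, q = 0.159) or naive OL replicate 1 (1.20, q = 0.0924). Stat6 rose in OL libraries (2.33 ± 0.55, q = 0.00189) and in total RNA (2.13 ± 0.50, q = 0.00168). The OL call of Stat6 was lost in a fit of only the groups compared (2.37, q = 0.131). The 3 that fell in OL libraries, none by more than 1 on the log2 scale, were Jak1, Jak2 and Tyk2, the kinases known to bind gp130. The list's OL calls came to 1 in a fit of only the groups compared, to 2 with the replicate block, and to 3 without dpi 2 pool 2 or without naive OL replicate 1.

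Of 16 adaptors and inhibitors, 4 rose and 3 fell in the OL translatome on dpi 2, close to the 18.4% and 20% of all genes, and 5 rose and 3 fell in total RNA, beside 16.4% and 20.8%. Gab1, a docking protein that links receptors to other signals, was strongly OL enriched in naive tissue (649 to 844 CPM in OL libraries and 106 to 118 in total RNA, 2.75 ± 0.16, q = 8.49e-12) and fell on dpi 2 in OL libraries (-1.41 ± 0.16, q = 4.7e-07) and in total RNA (-0.78 ± 0.16, q = 0.000424). Socs2, a relative of Socs3, rose in OL libraries from 0.306 to 0.714 CPM to 1.45 to 3.77 CPM (2.67 ± 0.39, q = 1.54e-05). It rose in total RNA as well (1.00 ± 0.34, q = 0.0271), but not without dpi 2 replicate 2 or 3 or any naive total RNA library (q 0.0559 to 0.0878). Its differential OL enrichment was 1.67 ± 0.51 (q = 0.0336), or 1.65 with the tissue pool as a block (q = 0.0969), and was lost in 16 of the 24 fits with 1 library left out. The phosphatase gene Ptpn1 and the adaptor gene Shc1 rose in total RNA (1.20 ± 0.14, q = 7.34e-07, and 1.75 ± 0.24, q = 6.36e-06) and had a differential OL enrichment of -1.26 ± 0.19 (q = 0.000146) and -1.25 ± 0.33 (q = 0.0144, or 0.0935 without both libraries of dpi 2 pool 2).

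Of 20 genes listed as STAT3 targets, the OL translatome had 17 higher and 2 lower on dpi 2, and 16 higher and 2 lower at both later times. Of all genes, 18.4%, 9.62% and 16.2% were higher there at the 3 times, and 20%, 8.59% and 16.9% lower. Total RNA had 16 higher and 1 lower on dpi 2. It had 15 higher at both later times, with 1 lower on dpi 10 and none on dpi 42, where 16.4%, 13.9% and 10.4% of all genes were higher and 20.8%, 18.2% and 12.1% lower at the 3 times. The median OL change on dpi 2 was 3.55 beside 0 over all genes, and the median total change 2.62 beside -0.10. Hif1a and Vegfa were the 2 that fell in the OL translatome. Many listed genes also answer to other transcription factors, and the genes were listed with earlier results of these data known. Serpina3n, a secreted serine protease inhibitor, went from 44.9 to 86.4 CPM in naive OL libraries to 7457 to 7634 CPM on dpi 2, a change of 6.99 ± 0.24 (q = 5.05e-14). In total RNA it went from 52.0 to 62.2 CPM to 1731 to 2183 CPM (5.10 ± 0.22, q = 2.45e-12). The AP-1 genes Junb and Fos rose by more in OL libraries (4.64 ± 0.25, q = 3.42e-11, and 4.76 ± 0.27, q = 5.5e-11) than in total RNA (2.47 ± 0.22, q = 3.34e-08, and 1.60 ± 0.23, q = 1.22e-05). The differences were 1.89 ± 0.26 for Serpina3n (q = 6.36e-05), 2.17 ± 0.31 for Junb (q = 8.69e-05) and 3.16 ± 0.33 for Fos (q = 3.44e-06). Cebpd, a transcription factor of the acute phase response, rose in both (4.71 ± 0.29, q = 2.09e-10, and 4.45 ± 0.29, q = 6.52e-10). Over the list, differential OL enrichment on dpi 2 was called higher for 4 genes and lower for 1 (8.06% and 6.03% of all genes).

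**Figure D4:**
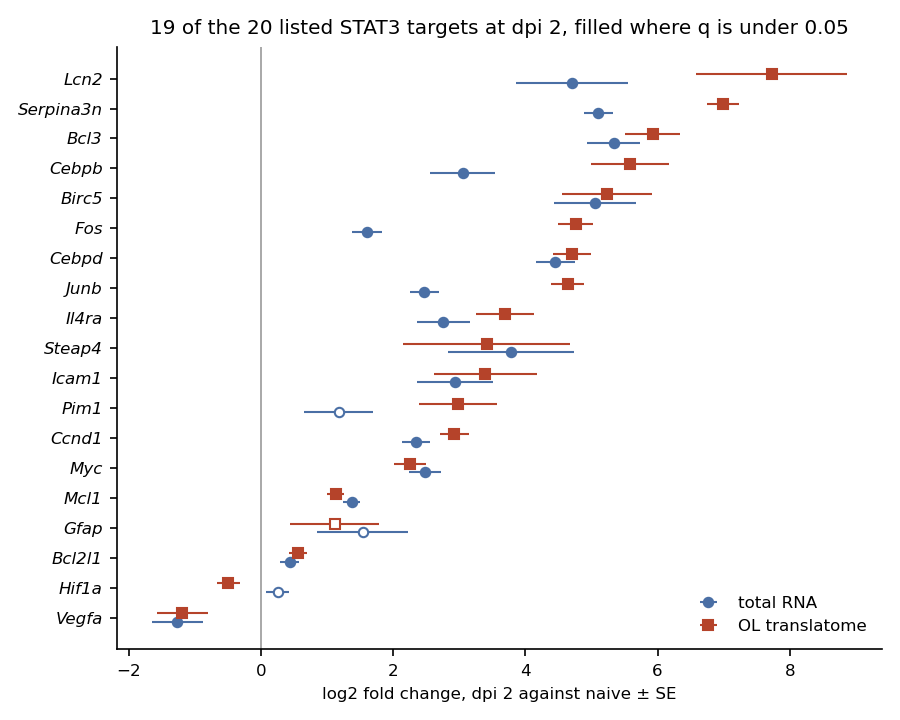
Log2 fold change on dpi 2 against naive (x axis, ± SE) of 19 listed STAT3 targets (y axis) in the OL translatome (squares) and total RNA (circles), filled where q is under 0.05. Timp1 is left out because naive OL libraries held at most 3 of its counts. Hif1a and Vegfa lie left of 0 in the OL translatome, and Fos, Junb and Serpina3n are farther right there than in total RNA.

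For the 9 genes themselves, differential OL enrichment was called for 1 gene on dpi 2, Socs3, which was higher (8.06% of all genes), for 2 on dpi 10, Stat3 higher and Il6st lower (4.57% and 3.09% of all genes), and for 2 on dpi 42, Socs3 higher and Il6st lower (4.37% and 3.47%). From dpi 2 to dpi 10, Il6st, Clcf1 and Socs3 fell in OL libraries and none rose (10.6% of all genes fell and 11.7% rose), and Clcf1, Socs3 and Stat3 fell in total RNA and none rose (4.53% and 3.31%). From dpi 10 to dpi 42 edgeR called none of the 9 in either kind of RNA, where it called 7.18% of all genes in OL libraries and 0.262% in total RNA. At an unadjusted p under 0.05 there were 3 in OL libraries (Lifr, Cntf and Stat3) and 0 in total RNA, and DESeq2 called 1 (Cntf) and 0.

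The genes whose log2 CPM followed each member most closely over the 24 libraries were named by Pearson's r, as a description. The points share libraries, and the groups differ strongly. For Stat3 they were Lmna (r = 0.973), Lbh (0.969) and Klk6 (0.965), and for Socs3 Nes (0.946), Fbln2 (0.945) and Muc1 (0.942). For Osmr they were Ehd2 (0.979), Ifitm3 (0.977) and Clic1 (0.976), for Clcf1 Ccnd1 (0.947), Rps18 (0.938) and Txn1 (0.936), and for Osm Crabp2 (0.941), Ccl4 (0.922) and Trp53 (0.913). Lifr was followed by Tmem30a (0.92), Trappc8 (0.914) and Ppp2r5c (0.907). The values were lower for Lif (Sgo1, Edn1 and Tcf7, 0.853 to 0.873), Cntf (Fxyd1, Shpk and Naaa, 0.8 to 0.85) and Il6st (Nadk, Rpn2 and Cavin4, 0.654 to 0.738).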

How the data were processed

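RNA was sequenced from total spinal cord and from HA immunoprecipitates of the same pools. The authors aligned reads to the mouse genome (mm10, GRCm38.p6) with STAR after FastQC (0.10.1), and deposited gene counts made with HTSeq (0.10.0) that are not normalized; the strand setting is not given in the sources used here. All 21965 genes of the table and all 24 libraries were used. The filter asked for 10 counts summed over libraries and left 17167 genes. Then edgeR (4.0.16, in R 4.3.3) was run with TMM factors (0.7418 to 0.8991 in OL libraries, 1.097 to 1.287 in total RNA) and 1 quasi-likelihood fit over 8 group means. It gave 17 contrasts, with Benjamini-Hochberg q values over all tested genes in each. A prior count of 2 was used for the log2 CPM behind the correlations, and not for the fitted log2 changes. A fold against a group with 0 counts was computed from the floor of 3 counts per library. Totals and floors cover counting error only. The SE is the absolute log2 change divided by the square root of F from the quasi-likelihood test. It thus includes the spread between libraries. The precision of each value is set by its counts and by 3 libraries per group, each of a separate pool. RPKM used exon lengths from GENCODE M21.

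DESeq2 (1.42.0), other scalings and filters, replicate blocks, fits of only the groups compared and omission of single libraries were tried as alternatives. The script was tested on simulated data. Between naive and dpi 2 OL groups, which are of different mice, libraries of the same number deviated together (r 0.162 to 0.374). Pairs of unlike number had r from -0.295 to 0.158. The replicate number was tried as a block for this reason, and the main fit had no block. OL and total RNA of a pool come from the same mice, so the tissue pool pairs them. In naive, dpi 2 and dpi 10 tissue these pairs (r 0.042 to 0.24) lay above all unlike pairs of the same time. On dpi 42 they did not (r -0.042 to 0.009, beside -0.045 to 0.034 for unlike pairs). Calls lost under the tissue pool block, and under the replicate block on dpi 2, are given beside the result. On dpi 10 the replicate block also ended the OL change calls of Il6st, Osmr, Osm and Clcf1 (q 0.0518 to 0.406). On dpi 42 it ended the OL change calls of all members called there (q 0.0572 to 0.368). On those days the replicate numbers do not pair libraries with naive. Named genes were the 9 members, genes of pathway lists that changed most, and the 3 genes with the highest r to each member. The members and lists were chosen with earlier results of these data known. Promoter windows are from RefSeq. Some items of the lists are not reported here.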

Additional observations from a re-analysis of the deposited data

Results flagged for a closer look

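The change after injury differed between the OL translatome and total RNA, by edgeR's interaction term over all libraries, for 3 of the 9 genes. Socs3 rose by more in the OL translatome, with a difference of 2.50 (log2) on dpi 2 and 2.84 on dpi 42. Stat3 did so on dpi 10, with a difference of 0.51. Il6st was lower by -0.77 on dpi 10 and -0.73 on dpi 42. Of these 5 calls, that of Il6st on dpi 10 was kept in each fit that left out 1 library, and the other 4 were lost in at least 1 of them.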

How the results depend on the processing

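Counts of called genes among the 9 moved by over 1.5 times in these settings. Fits of only the groups compared gave 3 calls for OL enrichment in naive tissue (6 with all libraries) and 4 on dpi 42 (2), 4 for the OL change on dpi 10 (7), 0 for differential OL enrichment on dpi 2 (1) and 0 on dpi 42 (2), and 1 in total RNA from dpi 10 to dpi 42 (0). Library sizes alone gave 5 calls for OL enrichment on dpi 2 (3) and 4 on dpi 42 (2). OL enrichment on dpi 2 had 1 call without both libraries of pool 2, and DESeq2 gave 1 call in OL libraries from dpi 10 to dpi 42. The replicate numbers of dpi 10 and dpi 42 do not pair libraries with naive. With them as a replicate block, the calls were 3 for the OL change on dpi 10, 0 on dpi 42 (8 without) and 1 in total RNA from dpi 10 to dpi 42. With 1 library left out, calls ranged from 3 to 7, 1 to 4, 2 to 5 and 2 to 4 for OL enrichment (naive, dpi 2, 10 and 42), from 6 to 6, 5 to 7 and 8 to 8 for the OL change, from 6 to 9, 6 to 8 and 5 to 8 for the total change, and from 0 to 2, 1 to 2 and 0 to 3 for differential OL enrichment. They ranged from 2 to 3 (dpi 10 against dpi 2) and 0 to 2 (dpi 42 against dpi 10) in OL libraries and from 3 to 3 and 0 to 0 in total RNA.

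No called value of the 9 genes changed its sign in these settings except the OL enrichment of Lifr on dpi 10, which was -0.20 with library sizes alone. Signs were compared for called values and for those uncalled values that the text prints. Of the latter, those that turned with library sizes alone were the OL enrichment of Lifr in naive tissue (-0.25), Il6st on dpi 2 (-0.28) and Socs3 on dpi 10 (-0.49, and -0.001 with DESeq2 or its size factors), the OL change of Il6st on dpi 2 (0.053) and the differential OL enrichment of Stat3 on dpi 2 (-0.007). Without both libraries of dpi 2 pool 2 the OL enrichment of Clcf1 on dpi 2 was 0.55 and the OL change of Cntf was -0.32. With 1 library left out, values that turned ranged from -0.67 to 0.23 for the OL enrichment of Clcf1 on dpi 2, from -0.38 to 1.39 for the OL change of Cntf on dpi 2, from -0.20 to 0.087 for the OL enrichment of Il6st on dpi 42, from -0.17 to 0.37 for that of Socs3 on dpi 10, from -0.063 to 0.18 for Stat3 in OL libraries from dpi 2 to dpi 10, and from -0.29 to 0.069 for its differential OL enrichment on dpi 2. The causes were not tested. Depth limits Osm, Lif, Cntf and naive Socs3, which rest on few counts.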
